A study of Mus musculus with 12 samples.

Results

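The genes described here form a set of 10 mouse genes of fat cells and fatty acid metabolism: Adipoq, Pck1, Cidec, Plin1, Plin4, Cfd, Fabp4, Ucp1, Pparg and Acaa1b. They were followed through 12 arrays of lung RNA. The members were chosen by their lower levels after ventilation and by a wide spread among the control lungs. Those measured values are therefore given as a description, with no test. The only test of members asks what ventilation added to another treatment, and that comparison may also have entered the choice. A gene was represented by the probe sets annotated to it alone, with the probe set of highest mean over the 12 arrays as its main one. Of the 10 genes, 8 have such a probe set (13 probe sets in all), and Plin1 and Cfd are named only. The mean level passed the filter on low values for 7 of the 8, among 12921 genes tested. Ucp1 did not pass, with a mean of 6.27 on the log2 scale against a limit of 6.42.

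The mice were 8 to 12 weeks old and the arrays fall into 4 groups of 3. The control treatment was PBS, phosphate-buffered saline. Ventilated mice breathed for 4 hours on a ventilator set to 30 ml per kg a breath, which is large enough to injure the lung. Another group had 20 µg of rhPBEF, recombinant human pre-B-cell colony-enhancing factor, instilled into the trachea of each mouse, in 1.5 µl of water for each gram of body weight. The fourth group received rhPBEF and the same ventilation, and is called the combined group. The labels give neither the time between instillation and collection nor whether the ventilated mice had received saline, and no group was ventilated at a low tidal volume. Nothing in the labels says that the 3 arrays of a group came from separate mice, so the p-values measure only the spread between these arrays. Levels are log2 values as deposited, so a difference of 1 is a doubling.

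White fat cells store triglyceride in a large droplet coated by perilipins and by the CIDE protein Cidec, and they secrete adiponectin (Adipoq) and adipsin (Cfd). The nuclear receptor PPAR gamma (Pparg) drives their formation and switches on many of these genes, Fabp4 and Pck1 among them. In the lung several of the genes have other sources as well. Alveolar macrophages need Pparg, and capillary endothelium makes Fabp4, while fat cells lie along the large airways and vessels and in the tissue around the heart. Brown fat, which also lies in the chest, burns fatty acids through the uncoupling protein Ucp1. Acaa1b is an enzyme of another kind, a peroxisomal thiolase that carries out the last step of fatty acid oxidation in peroxisomes.

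Before the members, the state of the arrays: all 12 carried the alveolar type 2 markers of lung at high levels (mean of 7 markers between 13.1 and 13.6), and correlations between arrays of the same group ran from 0.983 to 0.997. Control replicate 1 stood apart from controls 2 and 3 in most members, and ventilation replicate 1 was the lowest array for several. Ventilation replicate 2 was the lowest array for the alveolar type 2, fibroblast and alveolar macrophage marker lists. Skeletal muscle markers (5 past the filter) stood 2.81 above the control mean in ventilation replicate 3 and 3.89 above it in rhPBEF replicate 2, and between -0.35 and 0.18 in the other 10 arrays. Because the tissue was measured in bulk, fewer cells of a type and less RNA per cell cannot be told apart.

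The starts of 3 genes are shown because they stand for the patterns in the data: Adipoq for the fat cell genes that varied together, Ucp1 for a brown fat gene read high in 1 control, and Acaa1b for the gene with tight controls. Each stretch is the 250 bases before the start site, 5′ to 3′ on the gene's strand, from RefSeq on GRCm38.p6. Adipoq lies on the plus strand at chr16:23146286-23146535, Ucp1 on the plus strand at chr8:83290098-83290347 and Acaa1b on the minus strand at chr9:119157094-119157343. Capitals mark AGGTCA, the letters that a single member of a nuclear receptor pair such as PPAR with RXR recognises.
Adipoq: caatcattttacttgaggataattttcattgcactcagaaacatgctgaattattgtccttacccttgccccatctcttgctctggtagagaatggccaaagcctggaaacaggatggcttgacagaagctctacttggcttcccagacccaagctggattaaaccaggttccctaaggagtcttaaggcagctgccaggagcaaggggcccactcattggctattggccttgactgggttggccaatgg
Ucp1: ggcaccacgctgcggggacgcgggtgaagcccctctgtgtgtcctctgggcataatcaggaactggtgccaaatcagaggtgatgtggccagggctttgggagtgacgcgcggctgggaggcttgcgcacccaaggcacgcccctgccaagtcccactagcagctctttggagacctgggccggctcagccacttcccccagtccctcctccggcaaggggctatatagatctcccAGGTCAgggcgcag
Acaa1b: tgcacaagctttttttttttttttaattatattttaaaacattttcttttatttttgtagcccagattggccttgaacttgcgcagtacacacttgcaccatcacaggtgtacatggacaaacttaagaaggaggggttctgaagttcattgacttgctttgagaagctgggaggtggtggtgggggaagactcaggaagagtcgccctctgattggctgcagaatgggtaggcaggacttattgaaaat
The motif AGGTCA, searched on both strands, occurs in 14.0% of 32851 such windows and, among the 9 members with a window, in Ucp1, where it begins 14 bases before the start, and in Pparg. The PPAR direct repeat, which is AGGTCA, any 1 base and AGGTCA again, and so overlaps the single motif, occurs in 0.0335% of the windows and in none of the members' windows. A looser form with AGGNCA in both places occurs in 0.338% and again in none of theirs. The C/EBP palindrome TTGCGCAA occurs in 0.164% of windows and in none of theirs. The letters TATAAA occur in 12.4% of all windows and, among members, in Pparg alone. These matches describe the letters within 250 bases of the start and nothing beyond.

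Adiponectin, the hormone that fat cells secrete, gave the widest control group of the 7 tested members. Its gene Adipoq read 11.08, 9.35 and 9.50 in control replicates 1, 2 and 3. Levels were 8.04, 8.66 and 8.96 in the ventilated arrays. They were 9.38, 9.66 and 9.58 with rhPBEF and 9.41, 9.45 and 8.88 in the combined group. All 3 ventilated arrays lay below all 3 controls, while the rhPBEF and combined arrays overlapped the 2 lower controls. The ventilated mean was 8.55 ± 0.47 and the control mean 9.98 ± 0.96 (SD, n = 3), a difference of -1.42, which became -0.87 without control replicate 1. Against control, rhPBEF gave -0.44 with all arrays and 0.11 without control replicate 1, so the direction turned on that array. The combined group gave -0.73 with it and -0.18 without it.

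Fabp4, the fatty acid binding protein of fat cells and capillary endothelium, followed Adipoq most closely of the 12920 other genes tested. It read 12.59, 11.27 and 11.19 in the controls and 10.41, 10.97 and 11.25 in the ventilated arrays. With rhPBEF it read 11.62, 11.64 and 11.66, and in the combined group 11.55, 11.65 and 11.39. The 3 rhPBEF arrays had an SD of 0.023, the ventilated arrays overlapped the controls, and every array with rhPBEF lay above control replicates 2 and 3. Relative to control, ventilation gave -0.80 and rhPBEF -0.04. Without control replicate 1 these became -0.35 and 0.42, and the combined difference went from -0.15 to 0.30, so both rhPBEF groups changed side. The other 3 Fabp4 probe sets past the filter gave ventilation differences of -0.73, -0.50 and -0.82. The first of these, with a mean of 9.77, also had every array with rhPBEF above control replicates 2 and 3. The others, with means of 6.74 and 6.62, did not.

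Pck1, the cytosolic PEPCK that supplies glycerol for triglyceride storage in fat cells, was read lowest in the ventilated group. It read 9.03, 7.51 and 8.05 in the controls and 5.98, 6.15 and 6.50 in the ventilated arrays. With rhPBEF the readings were 7.19, 7.29 and 7.80, and in the combined group 6.73, 7.04 and 7.30. The 3 ventilated arrays were the lowest of all 12, and the combined arrays lay between them and the controls. The ventilated mean was 6.21 ± 0.26 and the control mean 8.20 ± 0.77 (SD, n = 3), a difference of -1.99, or -1.57 without control replicate 1. The ventilated mean lies under the filter limit of 6.42, where a reading could not be told from background, so the size of this difference is uncertain. Of its 2 other probe sets, both below the filter, one gave a ventilation difference of -0.93 and the other, at a mean of 3.49, gave 0.03.

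The droplet coat genes Cidec and Plin4 had lower means than control in each treated group, with all arrays counted. Cidec, which enlarges droplets by fusing them, read 9.15, 8.21 and 7.89 in controls and 7.14, 7.46 and 7.14 after ventilation. It read 7.55, 7.67 and 7.79 with rhPBEF, then 7.23, 7.50 and 7.39 with both. Every treated array lay below every control array for this gene, with differences from control of -1.17 for ventilation, -0.75 for rhPBEF and -1.04 for the combination, or -0.80, -0.38 and -0.68 without control replicate 1. Plin4, a perilipin of small droplets, read 9.94, 9.19 and 9.25 in controls and 7.90, 8.39 and 9.11 after ventilation. With rhPBEF it read 9.27, 9.46 and 8.79, and with both 8.97, 8.92 and 9.14. Ventilated and combined arrays all lay below the controls, although ventilation replicate 3 came close to control replicate 2. The differences of Plin4 from control were -0.99 for ventilation, -0.28 for rhPBEF and -0.45 for the combination. Without control replicate 1 they were -0.75, -0.04 and -0.21, so the rhPBEF difference rested on that array, and without ventilation replicate 1 as well the ventilation difference was -0.47.

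Ucp1, the heat-producing uncoupler of brown fat, was read at low levels except in a few arrays. Control replicate 1 stood at 7.89 against 5.58 and 5.75 in the other controls. The ventilated arrays read 5.68, 6.01 and 5.81. The rhPBEF arrays read 6.97, 6.15 and 6.37, and the combined arrays 6.83, 6.44 and 5.79. The 3 rhPBEF arrays lay above the 3 ventilated arrays, while every other pair of groups overlapped. The table holds no detection calls, so readings this low could not be told from background and the size of the gap within the controls is uncertain.

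Control replicate 1 was thus the highest of the 12 arrays for 7 of the 8 genes, and Acaa1b was the exception, ranking 4. Its excess over the mean of controls 2 and 3 was 1.65 for Adipoq, 1.37 for Fabp4, 1.26 for Pck1, 1.10 for Cidec, 0.72 for Plin4 and 0.42 for Pparg, and only 0.09 for Acaa1b. Set among all 12921 genes, the control SD of Adipoq was larger than that of 99.97% of genes, that of Pck1 than 99.9% and that of Cidec than 99.8%. For Acaa1b the share was 29.7%. These positions describe what the set was chosen for.

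**Figure D1:**
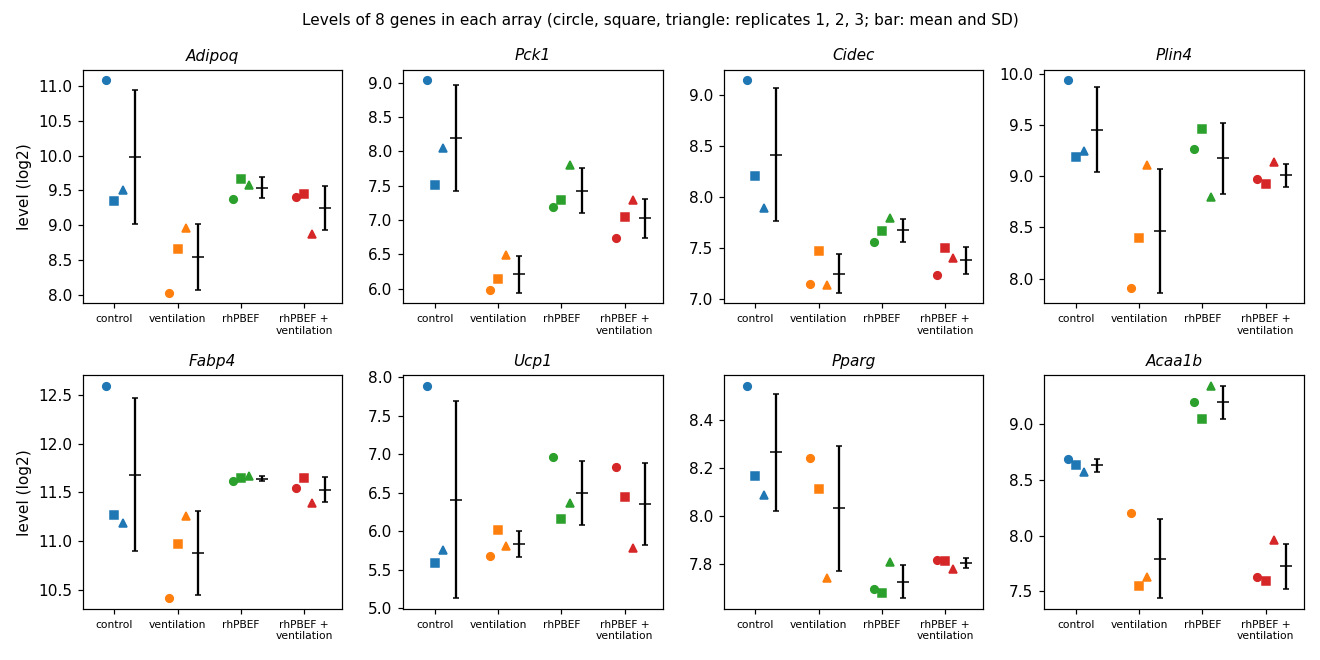
Level (log2) of the main probe set of 8 genes in each of the 12 arrays, by group, with circle, square and triangle for replicates 1, 2 and 3 and a bar for the group mean and SD (n = 3); each panel has its own vertical scale. Control replicate 1 is the highest point in every panel but that of Acaa1b, whose controls lie between 8.57 and 8.69.

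Pparg, the master regulator of fat cells and a factor that alveolar macrophages depend on, differed from the storage genes in where its low arrays lay. It read 8.54, 8.16 and 8.09 in controls and 8.24, 8.11 and 7.74 after ventilation. With rhPBEF it read 7.69, 7.68 and 7.81, and with both 7.82, 7.81 and 7.78. The 6 arrays with rhPBEF lay below all controls, between 7.68 and 7.82, while the ventilated arrays overlapped the controls. Relative to control the differences were -0.23 for ventilation, -0.54 for rhPBEF and -0.46 for the combination, and -0.09, -0.40 and -0.32 without control replicate 1. Of 9 alveolar macrophage markers tested, Marco, a scavenger receptor, rose by 1.93 ± 0.31 (SE) with rhPBEF against control (limma, adjusted p = 0.0133) and the median of the list was 0.01. With both treatments Marco rose by 1.65, while Siglecf fell by 1.03 and Krt79 by 0.94 (limma, adjusted p = 0.0147, 0.029 and 0.0106). Over all genes 0.936% were called higher with rhPBEF, and 3.93% higher and 4.86% lower with both. The Marco call with rhPBEF was lost without any 1 of the controls or rhPBEF replicate 1, and the Krt79 call without combined replicate 2 only. With both treatments the Marco call was lost without control replicate 1 or 2 or combined replicate 1 or 2. The Siglecf call was lost without any 1 of the controls or combined replicate 1 or 2. The macrophage list mean relative to control ranged from 0.01 to 0.12 in the rhPBEF arrays and from -0.21 to -0.06 in the combined arrays, and its part in the level of Pparg was not tested.

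Acaa1b, the peroxisomal thiolase, showed a pattern of its own, high with rhPBEF and low in both ventilated groups. It read 8.69, 8.63 and 8.57 in the controls and 8.20, 7.55 and 7.63 in the ventilated arrays. With rhPBEF it read 9.20, 9.05 and 9.34, and in the combined group 7.63, 7.59 and 7.96. The 3 rhPBEF arrays lay above all others, the 3 controls came next, and the 6 ventilated arrays lay below both, with the ventilated and combined groups overlapping each other. Group means were 8.63 ± 0.06 in control, 7.79 ± 0.36 after ventilation, 9.19 ± 0.15 with rhPBEF and 7.73 ± 0.20 with both (SD, n = 3). Relative to control, ventilation gave -0.84, rhPBEF 0.56 and both -0.91. Leaving out control replicate 1 changed these little, to -0.81, 0.59 and -0.88.

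The comparison of the combined group with rhPBEF alone asks what ventilation added in lungs that had received rhPBEF, and its difference uses none of the control or ventilation-only arrays, which enter only through the estimate of the spread. Acaa1b fell by 1.47 ± 0.16 (SE) on the log2 scale, a 2.77-fold lower level (95% interval of the log2 difference -1.83 to -1.11, limma, adjusted p = 0.0273 over 12921 genes). It was the 1 gene called there, against a background of 0.00774% of genes called. All 3 combined arrays lay below all 3 rhPBEF arrays. The rule that formed the set speaks of falls with ventilation without naming the comparison, so this value may have entered the choice of Acaa1b and is given as the value of the fit, not as support. The difference stayed between -1.58 and -1.40 under all 21 alternatives, and 11 of them kept the call. The call was lost without any 1 of the controls (adjusted p 0.0835 to 0.0886 in limma), without any 1 of the rhPBEF arrays (0.107 to 0.253) and without combined replicate 1 or 2 (0.241 and 0.257). It was also lost with only the 2 groups in the fit (0.147) and with the replicate number as a block (0.0637), and the range over all alternatives was 0.00167 to 0.257.

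The other 6 tested members gave small differences in the same comparison, none of them called, with an adjusted p of 0.999 for each (limma). Pck1 gave -0.40 (95% interval -1.12 to 0.32), Cidec -0.29 (-0.85 to 0.26) and Adipoq -0.29 (-1.16 to 0.58). Plin4 gave -0.16 (-0.81 to 0.48), Fabp4 -0.11 (-0.82 to 0.59) and Pparg 0.08 (-0.23 to 0.38). The intervals span 0 and are wide, so these values do not show that the genes kept their level. Their width comes from the spread within all 4 groups, and the set was chosen partly for its control spread. For Fabp4 the SD was 0.79 in controls, 0.023 with rhPBEF and 0.13 in the combined group. The intervals and adjusted p can therefore partly follow from the choice. With only the 2 groups fitted, the adjusted p was 0.996 for each of these 6 genes (limma). Of the 7 members 6 had a negative difference, with a median of -0.29 against 0.00 over all genes, of which 48.2% were negative. Groups without overlap, all combined arrays lower, occurred for Cidec and Acaa1b, 2 of 7 members against 4.28% of all genes.

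The remaining comparisons share the control arrays on which the set was chosen, so their counts are only described. After ventilation alone all 7 members were lower than control, with a median of -0.99 against -0.04 over all genes, and 5 of 7 had no overlap with the controls against 15.5% of genes; 0.00774% of genes were called. With rhPBEF 6 of 7 were lower with a median of -0.44 against -0.07, and 2 of 7 (Cidec and Pparg) had no overlap against 24% of genes. Without control replicate 1 only 4 of 7 were lower with rhPBEF, and the median was -0.04 against -0.06 over all genes. With both treatments 7 of 7 were lower with a median of -0.73 against -0.06, and 5 of 7 had no overlap against 24.4% of genes. Without control replicate 1 these became 6 of 7 and a median of -0.32, and for ventilation alone 7 of 7 and a median of -0.80.

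Set beside the ventilated group, the combined group had higher mean levels for most fat cell genes. The combined minus ventilated difference was 0.82 for Pck1, 0.69 for Adipoq, 0.65 for Fabp4, 0.54 for Plin4 and 0.52 for Ucp1. It was 0.13 for Cidec, -0.07 for Acaa1b and -0.23 for Pparg. Without ventilation replicate 1 it was 0.70 for Pck1, 0.44 for Adipoq, 0.42 for Fabp4, 0.26 for Plin4 and 0.44 for Ucp1. It was then 0.075 for Cidec, -0.13 for Pparg and 0.14 for Acaa1b, whose sign turned. On the main probe sets of Pck1 and Fabp4 every combined array lay above every ventilated array, and for the other 6 genes the groups overlapped. The Fabp4 probe set with a mean of 9.77 also kept the groups apart. On those with means of 6.74 and 6.62 ventilation replicate 3, at 6.88 and 6.65, lay above every combined array. The ventilated arrays are those on which the set was chosen, so no test is given.

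The genes that deviated from their group means most like Adipoq across the 12 arrays were, after the member Fabp4 (Pearson correlation 0.97), Nppb, Ephx2, Igf2, Nnat, Car3, Thrsp, Gpd1, Corin, Fmod and Tmem45b, with correlations from 0.87 to 0.96. Of these 10, Nnat, Car3, Thrsp and Gpd1 belong to a list of other fat cell genes, and 0 belong to the list of heart muscle markers. All 10 were highest in replicate 1 among the controls. Nppb encodes a natriuretic peptide of the heart, and Corin the protease that activates such peptides. Nppb read 8.64 in control replicate 1 against 6.05 and 6.40 in the others, and 7.92 in ventilation replicate 3. Car3, a carbonic anhydrase abundant in fat cells, read 13.43, 12.25 and 12.11 in controls and 10.67, 11.69 and 11.90 after ventilation. Of the other members, Cidec ranked 35 in this order (0.78), Pck1 43 (0.75), Plin4 67 (0.70), Pparg 1486 (0.31) and Acaa1b 11703 (-0.36). The members, Fabp4 included, were chosen partly for their spread among controls, so their ranks partly follow from that choice and are not support. Among the 10 named genes the correlation of the levels themselves with Adipoq ran from 0.11 for Igf2 to 0.94 for Car3. The points share arrays and normalisation, and no p is given.

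Markers of heart muscle moved with some of the same arrays. Their mean over 11 genes, relative to the control mean, was 0.56 in control replicate 1 and -0.40 and -0.16 in controls 2 and 3. It was -1.62, -0.19 and 0.08 in the ventilated arrays, -0.42, 0.05 and -0.90 with rhPBEF and -0.70, -0.68 and -0.17 with both. Control replicate 1 was thus the highest array and ventilation replicate 1 the lowest for this list, as they were for Adipoq, Pck1, Plin4 and Fabp4. Defining genes of the list, Myh6 and Actc1, stood at 11.9 and 12.6 on average in the controls. The list mean over the 7 members was 0.63, -0.33 and -0.30 in controls, between -1.24 and -0.90 after ventilation, between -0.39 and -0.26 with rhPBEF and between -0.75 and -0.67 with both. In the ventilated arrays 2 and 3 the heart list stood near its control mean while the members stood at -1.05 and -0.90. Capillary endothelial markers (11 tested) stood between -0.36 and -0.22 in the ventilated arrays, between -0.26 and -0.17 with rhPBEF and between -0.48 and -0.08 with both, against -0.05 to 0.06 in controls. In the combined group 3 of the 11 were called lower than control, where 4.86% of all genes were. Eng fell by 0.67, Ramp2 by 0.77 and Sox17 by 0.86 (limma, adjusted p = 0.00499, 0.0288 and 0.0304), and 3 of the 11 were positive. The Eng call held without each of the 12 arrays in turn. Those of Ramp2 and Sox17 were lost without any 1 of the controls or combined replicate 1 or 2. The part of heart and endothelial RNA in the members' levels was not tested.

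**Figure D2:**
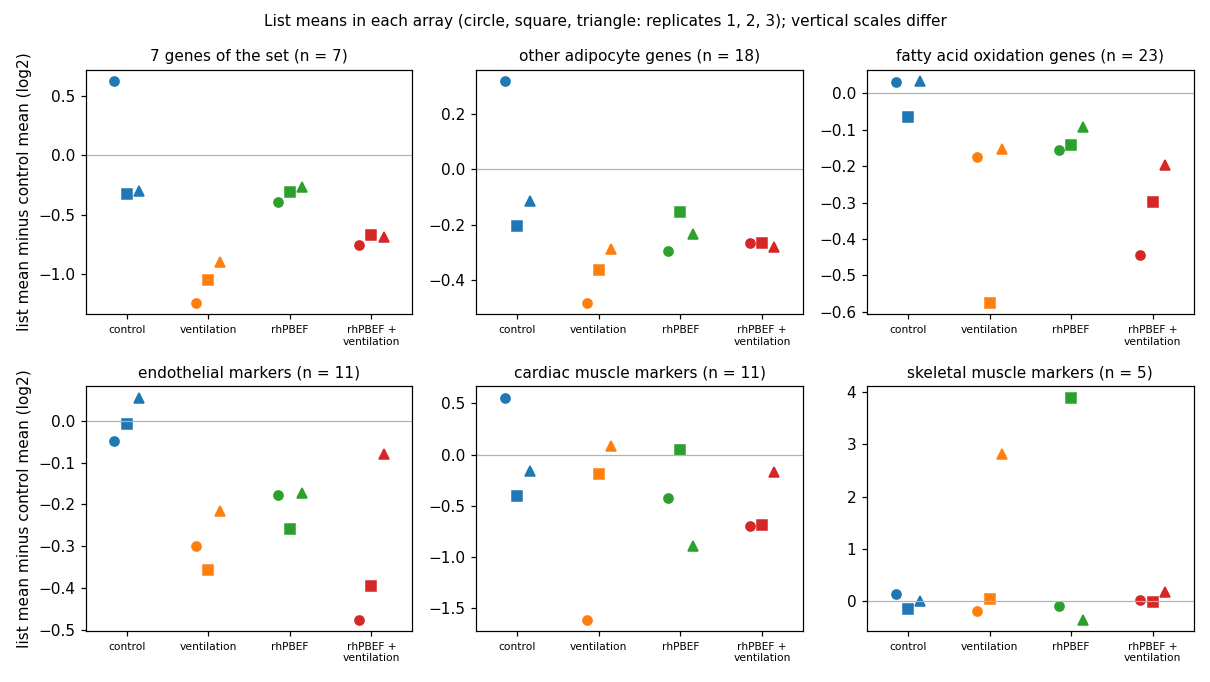
Mean of each gene list in each array, minus its mean over the 3 controls (log2), for the 7 members, other fat cell genes, fatty acid oxidation genes and 3 marker lists; symbols mark replicates 1, 2 and 3 and the vertical scales differ. Control replicate 1 is high and ventilation replicate 1 low in the member, fat cell and heart panels, and 2 arrays stand far above the rest in the skeletal muscle panel.

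Other fat cell genes, 18 tested of 23 listed, were read in the same arrays on which the members were chosen. The list was drawn up with earlier results of these data known, so its counts are not an independent check. Compared with control, 16 of 18 were lower after ventilation with a median of -0.38, against 59% of all genes and a median of -0.04. None was called (limma, 0.00774% of all genes called), while 11 of the 18 and 2004 of all 12921 genes had an unadjusted p under 0.05. The genes furthest down were Thrsp, a regulator of fat synthesis, at -1.27 ± 0.41 (SE), Car3 at -1.17 ± 0.36 and Retn, the hormone resistin, at -0.58 ± 0.22, with adjusted p = 0.215, 0.195 and 0.274 in limma. Thrsp read 10.42, 8.82 and 8.89 in controls, so control replicate 1 stood apart here too. Without that array 14 of 18 were lower with a median of -0.22, and Thrsp stood at -0.75, Car3 at -0.76 and Retn at -0.26. With all arrays, 18 of 18 were lower than control with rhPBEF (median -0.20, 65.7% of all genes lower). With both treatments 16 of 18 were lower (median -0.22, 61.8% of all genes). In the combined group Cebpa, a transcription factor that works with Pparg in fat cells, fell by 0.50, and Gpd1, which makes glycerol phosphate, fell by 0.52 (limma, adjusted p = 0.0147 and 0.0474). Of all genes 4.86% were called lower there. The call of Gpd1 was lost under median centring and quantile normalisation (adjusted p = 0.0562 and 0.0567 in limma) and held without 1 of the 12 arrays, ventilation replicate 2, and was lost without each of the other 11. When ventilation was added to rhPBEF, 11 of 18 were negative (48.2% of all genes) and none was called (limma, with 1 at an unadjusted p under 0.05). Lipe, hormone-sensitive lipase, stood at -0.40 there (limma, adjusted p = 0.999).

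Across all the lipid and fat cell lists, 111 genes other than the members were tested. None was called by limma for ventilation against control or for ventilation added to rhPBEF, where 38 and 4 had an unadjusted p under 0.05. With rhPBEF 1 rose (0.936% of all genes did) and 2 fell (0.286% of all genes), in sum 2.70% against 1.22% of all genes. With both treatments 3 rose (3.93% of all genes) and 16 fell (4.86% of all genes), in sum 17.1% against 8.79%. Negative differences made up 63.1% of these genes when ventilation was added to rhPBEF (48.2% of all genes), and against control 79.3% with ventilation (59% of all), 81.1% with rhPBEF (65.7%) and 81.1% with both (61.8%). The 19 calls in the combined group became 2, 4 and 1 without control replicates 1, 2 and 3, 12 without rhPBEF replicate 1, and 2, 1 and 34 without combined replicates 1, 2 and 3. The 3 calls with rhPBEF became 1, 0 and 0 without the controls in turn, 0 without rhPBEF replicate 1 or 2 and 1 without combined replicate 2. Subtracting each array's median gave 14 calls with both treatments and 2 with rhPBEF, and quantile normalisation gave 19 and 2. Cebpd with both treatments was the 1 call among these genes that held without each of the 12 arrays in turn.

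Fatty acid oxidation genes, 23 tested, lay below their comparison group almost throughout. All 23 had a negative difference when ventilation was added to rhPBEF (48.2% of all genes did), with a median of -0.15. None was called (limma, with 2 of the 23 at an unadjusted p under 0.05). Against control 22 of 23 were negative with ventilation (median -0.26), 21 with rhPBEF (-0.13) and 22 with both (-0.27). Of all genes 59%, 65.7% and 61.8% were negative in these comparisons. In the combined group 6 of the 23 fell, where 4.86% of all genes were called lower. Cpt1a, the gatekeeper of mitochondrial fatty acid entry, fell by 0.81, the mitochondrial thiolase Acaa2 by 0.62 and the dehydrogenase Acadm by 0.46. The others were Eci1 by 0.40, Hadha by 0.35 and Acadvl by 0.30, all with limma adjusted p between 0.0159 and 0.0415. Median centring gave 4 such falls and quantile normalisation 6, and over the 21 alternatives the number ran from 0 to 10. In ventilation alone Cpt1a stood at -0.74 ± 0.21 (SE, limma, adjusted p = 0.176) and Ehhadh, a peroxisomal enzyme of the step before thiolase, at -0.84 ± 0.36 (limma, adjusted p = 0.3). The list mean was lowest in ventilation replicate 2, at -0.58. It was -0.17 and -0.15 in ventilation replicates 1 and 3, against -0.16 to -0.09 with rhPBEF. Over the 21 alternatives the ventilation median ran from -0.32 to -0.17. Ventilation replicate 2 was also lowest for the alveolar type 2 (-0.42), fibroblast (-0.51) and macrophage (-0.35) lists, but not for the heart and endothelial lists.

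**Figure D3:**
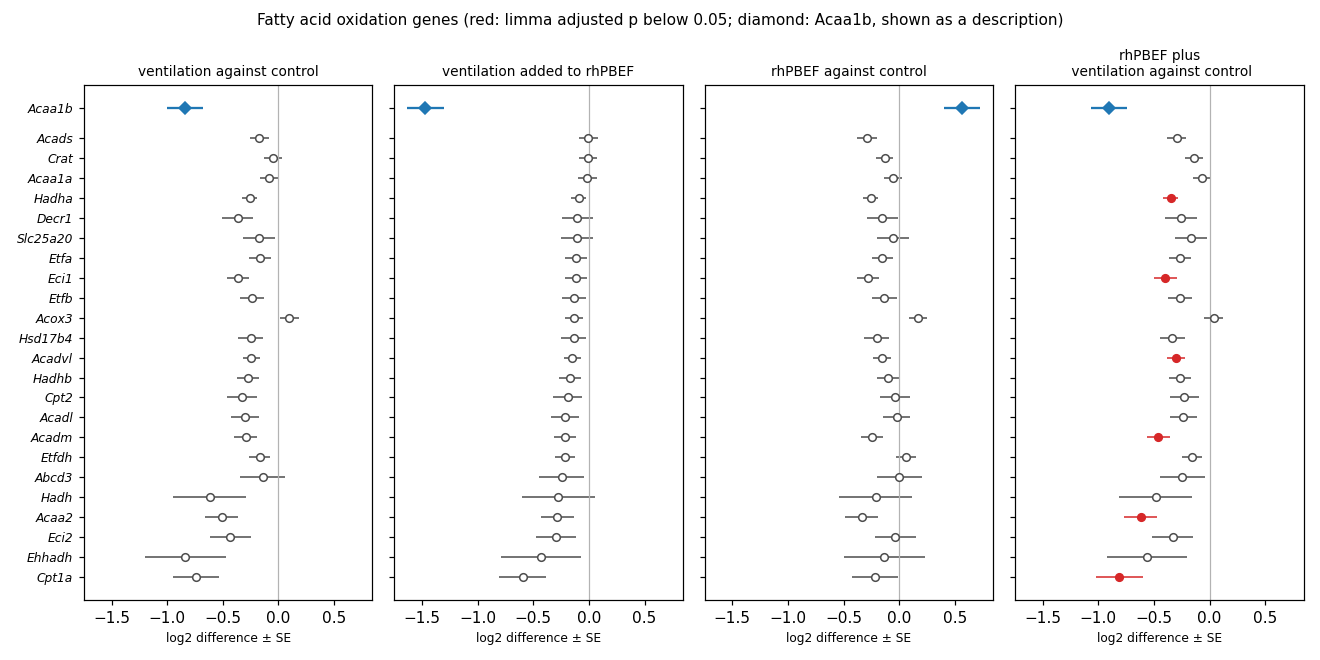
Log2 difference ± SE of 23 fatty acid oxidation genes and of Acaa1b in 4 comparisons, with filled red points for limma adjusted p below 0.05 and a diamond for Acaa1b, shown as a description. All 23 genes lie left of 0 when ventilation was added to rhPBEF, and the 6 red points are in the comparison of both treatments with control.

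Acaa1b shares most of its sequence with Acaa1a, and 2 probe sets are annotated to both genes. These shared probe sets gave ventilation differences of -0.32 and -0.17 from control and of -0.26 and -0.18 from rhPBEF, with 0.02 and 0.07 for rhPBEF against control. The 2 probe sets annotated to Acaa1a alone gave -0.08 and -0.08 for ventilation against control, -0.05 and 0.10 for rhPBEF against control and -0.01 and -0.00 for ventilation added to rhPBEF. The ventilation difference was thus largest on the probe set annotated to Acaa1b alone, smaller on the shared ones and near 0 on those of Acaa1a. How far the probes of each set tell the paralogs apart was not tested.

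**Figure D4:**
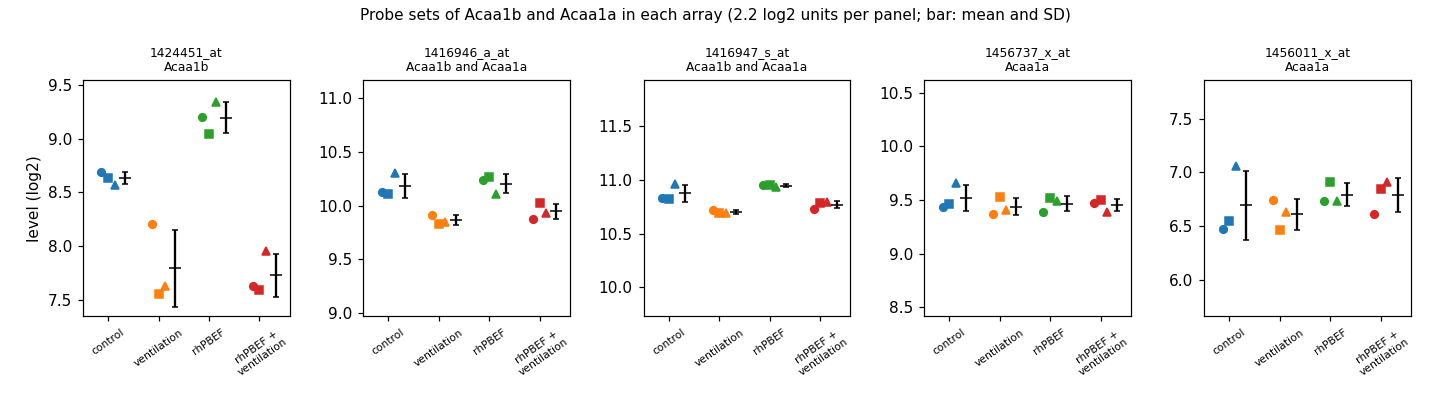
Level (log2) in each array of the probe sets annotated to Acaa1b alone, to Acaa1b and Acaa1a, and to Acaa1a alone, each panel spanning the same number of log2 units, with symbols for replicates 1, 2 and 3 and bars for mean and SD (n = 3). The Acaa1b panel separates rhPBEF from both ventilated groups, and the Acaa1a panels overlap in all groups.

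The genes that handle stored and newly made lipid showed a few falls in the combined group. In that group 4.86% of all genes were called lower and 3.93% higher than control. Of 14 droplet and lipolysis genes 4 fell against control: G0s2, an inhibitor of the lipase ATGL, by 1.17, the droplet protein Plin3 by 0.54, Fitm2, which helps droplets form, by 0.45, and Cideb by 0.33 (limma, adjusted p between 0.0137 and 0.0448). Centring on the median gave 2 such falls, quantile normalisation gave 5, and over the 21 alternatives the number ran from 0 to 6. With rhPBEF alone Fitm2 fell by 0.44 (limma, adjusted p = 0.0264). After ventilation alone Pnpla2, the lipase ATGL itself, stood at -0.41, Lipe at -0.40 and Mgll, which cleaves the last fatty acid from glycerol, at -0.35 (limma, adjusted p = 0.146, 0.277 and 0.186). Of 18 synthesis genes, 2 fell in the combined group, Acacb by 0.52 and Acly by 0.41 (limma, adjusted p = 0.0238 and 0.0244). The 13 uptake and binding genes had 1 call in that comparison, Acsl4, an acyl-CoA synthetase, which rose by 0.51 (limma, adjusted p = 0.0206). Lpl, the lipase that frees fatty acids from lipoproteins, and Gpihbp1, its anchor on capillaries, stood at -0.53 and -0.53 after ventilation (limma, adjusted p = 0.151 and 0.329).

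Regulators around Pparg went both ways. Over all genes 0.936% were called higher and 0.286% lower with rhPBEF, and 3.93% and 4.86% with both treatments. Of 15 tested, Cebpd rose by 1.03 ± 0.16 with rhPBEF (SE, limma, adjusted p = 0.0118) and by 1.35 with both treatments (adjusted p = 0.00187). Cebpb rose by 0.80 with both (limma, adjusted p = 0.031). These C/EBP factors act early in fat cell formation and also in the acute inflammatory response. Cebpa fell by 0.48 with rhPBEF (limma, adjusted p = 0.0355), a call lost under median centring and under quantile normalisation, and by 0.50 with both. After ventilation alone Cebpd stood at 0.85 (limma, adjusted p = 0.0909) and Angptl4, a PPAR target that inhibits Lpl, at -0.75 ± 0.49. Of 6 glyceroneogenesis genes tested, Pck2, the mitochondrial counterpart of Pck1, fell by 0.56 with both treatments (limma, adjusted p = 0.0316), a call kept under both scalings, beside Gpd1, whose call was not. Of 6 genes of adiponectin reception and secretion, the receptor Adipor2 fell by 0.35 with both (limma, adjusted p = 0.0322). When ventilation was added to rhPBEF, 5 of the 6 were positive with a median of 0.06, while 48.2% of all genes were negative.

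Of the brown fat genes, 9 passed the filter and none was called in any of the 4 comparisons (limma, with at most 2 at an unadjusted p under 0.05). Dio2, the deiodinase that activates thyroid hormone in brown fat, stood 1.41 ± 0.77 (SE) above control after ventilation and 1.23 ± 0.77 above rhPBEF in the combined group (limma, adjusted p = 0.394 and 0.999). Prdm16, a brown fat regulator, stood at 0.30 in the latter comparison, and Fabp3 at -0.53 and Kcnk3 at -0.32 in the former. Against control Dio2 stood at 2.63 ± 0.77 with both treatments (SE, limma, adjusted p = 0.0573). The control mean of Dio2 was 6.25, under the filter limit of 6.42. A reading that low could not be told from background, so the size of the Dio2 differences from control is uncertain. The SD of Dio2 was 0.21 in controls, 1.85 after ventilation, 0.99 with rhPBEF and 0.65 with both. The list mean ranged from -0.26 to 0.28 in controls and from -0.42 to 0.39 after ventilation, so the groups overlapped. Ventilation replicate 3 (0.39) and rhPBEF replicate 2 (0.27) were also the arrays high in skeletal muscle markers. The part of muscle RNA in this list was not tested.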

How the data were processed

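Lung RNA of 12 mouse samples was hybridised to Affymetrix arrays. Values were used as deposited, on a log2 scale, for each probe set of each array (2.99 to 15.02, array medians 7.00 to 7.07). The names MAS5 and GCRMA stand in the submitters' processing notes without a version or a role. How the arrays were normalised is not given in the sources used here. Detection calls were not used here, and the number of arrays limits the precision. Groups came from titles and treatment protocols, and a description that calls every sample a control was not used.

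Of 45101 probe sets, 64 controls were left out. Those with 1 gene symbol (34945) were used for genes, while 932 had several symbols and 9160 none. Probe sets with a mean over the 40th percentile (6.42) passed the filter. The highest mean stood for a gene. limma 3.58.1 (R 4.3.3, lmFit and eBayes, 4 group means, 8 residual and 2.99 prior degrees of freedom) was fitted to 12921 genes, with Benjamini-Hochberg adjustment in each comparison and 0.05 as threshold. Exact permutation of 3 against 3 arrays allows no p below 0.1. The fit was tested on simulated data.

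Members and lists were chosen with earlier results of these data known. The rule for naming covered all members and the 10 genes most like Adipoq. For each list it covered the 3 largest differences in each of 2 ventilation comparisons (against control, and added to rhPBEF). It also covered lists' called genes where 5 or fewer. The text gives only some of the list genes that the rule covered. The 6 called oxidation genes were named after their values were seen. Alternatives changed the filter, scaling, variance model, arrays fitted, probe sets, replicate block and arrays left out. Promoter windows came from RefSeq (GRCm38.p6). Figures used matplotlib 3.10.9 in Python 3.11.15.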

Additional observations from a re-analysis of the deposited data

Results flagged for a closer look

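The mean differences of Pparg with ventilation had opposite signs without and with rhPBEF. All 3 ventilated arrays lay below the control mean (difference -0.23), and all 3 combined arrays lay above the rhPBEF mean (difference 0.076). The groups overlapped in both comparisons, both 95% intervals span 0 (-0.54 to 0.07 and -0.23 to 0.38), and without control replicate 1 the first difference was -0.09, so neither shows a change of level. The difference between both effects was not tested, because it includes the contrast on which the genes were chosen. Arrays were left out in turn, but groups of 3 are too small to tell a single outlying array from the spread within a group.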

How the results depend on the processing

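With 3 arrays a group, counts of called genes depended on single arrays. For ventilation added to rhPBEF the count was 1, became 0 with only both groups fitted and 2 with the mean of all probe sets, and ran from 0 to 3 when each array was left out in turn. For ventilation against control it was 1, became 4 with a trend and robust prior, 0 with only both groups fitted and 4 with the mean of probe sets, and ran from 0 to 43 when arrays were left out. For rhPBEF against control it was 158, became 636 with only both groups fitted, and ran from 44 (without control replicate 2) to 358 (without combined replicate 3). For both treatments against control it was 1136 and ran from 152 (without combined replicate 1) to 2498 (without combined replicate 3). A fit without control replicate 1 and ventilation replicate 1 together, chosen after seeing the data, gave 0 for ventilation, 44 for rhPBEF and 123 for both against control. The cause was not tested. The replicate numbers were not shown to pair the arrays: correlations of same-numbered arrays ran from -0.07 to 0.53, -0.21 to 0.16, -0.19 to 0.13 and 0.07 to 0.14 in these 4 comparisons, and 4, 2, 1 and 6 of 6 arrays correlated best with their own number. With the replicate block the counts were 0, 0, 186 and 1263. The called difference of Acaa1b for ventilation added to rhPBEF stayed negative under all 21 alternatives. Whether the other called genes kept their sign was not tested. Filter and scaling alternatives kept each count within 1.5 times.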

Other observations

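Marker lists of tissues that lie next to the lung or within it gave a few called genes. Of 6 mesothelial markers, which line the outer surface of the lung, Krt19 fell by 0.72 with rhPBEF and Msln, mesothelin, rose by 0.82 with both treatments against control (limma, adjusted p = 0.0242 and 0.0304). Over all genes 0.286% were called lower with rhPBEF and 3.93% higher with both. The list as a whole was not lower with rhPBEF: 4 of the 6 were positive with a median of 0.29. Both calls were lost without any 1 of the controls, that of Krt19 also without rhPBEF replicate 2 or 3 and that of Msln without combined replicate 1 or 2. After ventilation alone 5 of the 6 were positive with a median of 0.32, none was called and 2 had an unadjusted p under 0.05 (limma). Lipofibroblasts are lipid-storing cells of the alveolar wall. All 9 fibroblast and lipofibroblast markers were negative after ventilation (59% of all genes were), with a median of -0.27 against -0.04 over all genes. None of them was called (limma, with 2 at an unadjusted p under 0.05), and the transcription factor Tcf21 stood furthest down at -0.76 ± 0.20 (SE, adjusted p = 0.159). Thymus and liver markers had 3 tested genes each, none called in the 4 comparisons (limma, with at most 1 at an unadjusted p under 0.05), and their list means stayed between -0.14 and 0.22 of the control mean in all 12 arrays.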
